A study of Homo sapiens with 6 samples.

Results

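The 37 genes described here code for glucose and lactate transporters, glycolytic enzymes and their regulators, further targets of the hypoxia-inducible factors (HIF), and the HIF alpha subunits themselves. They were taken from a list of gene names chosen with earlier results of these data known. They are 37 of the 27439 genes with reads, and 35 of them passed the filter on low counts. The cells were astrocytes derived from H1, an established human embryonic stem cell line. They formed 2 groups of 3 libraries, labelled control and VM, the latter read here as ventral midbrain. The labels number the libraries 2, 3 and 4 in each group, name no agent or allele that sets the groups apart, and do not say whether the libraries came from separate cultures. All cells thus share 1 parental line, and a p-value measures the spread between these libraries only.

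Glycolysis splits glucose into pyruvate in the cytosol, and lactate dehydrogenase turns pyruvate into lactate, which leaves the cell through monocarboxylate transporters. HIF is a pair of an oxygen-labile alpha subunit (HIF1A, or EPAS1, also called HIF-2 alpha) and a stable partner. With oxygen present, prolyl hydroxylases of the EGLN family mark the alpha subunit for breakdown, so that its level is set largely after transcription. When oxygen is scarce HIF binds hypoxia response elements, whose core reads ACGTG or GCGTG, and raises many glycolytic genes together with genes of blood vessel growth, acid balance and collagen modification. Astrocytes are known as a glycolytic cell type that exports lactate.

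The deposited 3' end libraries read the end of polyadenylated RNA and held 11617935 to 15391082 estimated reads. Levels are given as counts per 1e6 reads of the scaled library (CPM). The labels' cell type field names the stem cell, but of 6 pluripotency genes POU5F1 had 0 to 4 reads, TDGF1 none, LIN28A 0 to 2, L1TD1 0 to 10, NANOG 0 to 20 (19 and 20 in the libraries numbered 3) and DPPA4 43 to 90. GFAP, the astrocyte filament gene, was at 175 to 618 CPM and VIM at 3264 to 5226 CPM, while ALDH1L1, an adult astrocyte enzyme, was at 0.378 to 2.05 CPM and SLC1A2, a glutamate transporter of mature astrocytes, at 0.78 to 3.4 CPM. Of 13 astrocyte markers 3 rose with edgeR: AQP4, the astrocyte water channel (mean 3.86 against 30.5 CPM, adjusted p = 0.048), SLC1A3, a glutamate transporter (35.4 against 94.4 CPM, adjusted p = 0.034), and NFIA, a gliogenic factor (110 against 196 CPM, adjusted p = 0.045). With 1 of the 6 libraries left out in turn, the AQP4, SLC1A3 and NFIA calls were lost in 4, 4 and 5 of 6 fits. The fold change was negative for 6 of the 13, and edgeR called 0 lower. Over all genes tested 1.06% were called higher and 1.09% lower. A second fit, with the replicate number as a block, is described below. It called 3 of the 13 higher and 3 lower (SOX9, GJA1 and CD44), against 3.63% and 4.5% of all genes. SOX9 was lower without overlap, at a mean of 258 CPM in control and 191 CPM in ventral midbrain libraries. The part of these markers in the results below was not tested. EN1, a midbrain homeobox gene, was at 3.93 to 6.59 CPM in control and 191 to 219 CPM in ventral midbrain libraries. Both libraries numbered 3 stood apart in proliferation: the mean of 15 proliferation genes was 4.97, 6.61 and 4.88 log2 CPM in control replicates 2, 3 and 4, and 5.49, 7.03 and 5.19 in ventral midbrain replicates 2, 3 and 4. All 15 were highest in replicate 3 of both groups, which held for 17.6% of the genes tested.

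Promoters are shown for 4 of the genes called in either fit below. Each is given as the 250 bases before the start that lies furthest upstream in RefSeq (build GRCh38.p14). Capitals mark the HIF core ACGTG or GCGTG on either strand, so CACGT and CACGC are the same letters read on the other strand, and CACGTG holds the core once on each.
LDHA, chr11:18394313-18394562, plus strand: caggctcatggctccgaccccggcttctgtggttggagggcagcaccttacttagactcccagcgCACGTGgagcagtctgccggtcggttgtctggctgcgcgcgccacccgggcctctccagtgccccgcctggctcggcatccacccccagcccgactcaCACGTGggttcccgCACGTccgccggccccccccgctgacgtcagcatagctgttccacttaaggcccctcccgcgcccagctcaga
BNIP3, chr10:131981924-131982173, minus strand: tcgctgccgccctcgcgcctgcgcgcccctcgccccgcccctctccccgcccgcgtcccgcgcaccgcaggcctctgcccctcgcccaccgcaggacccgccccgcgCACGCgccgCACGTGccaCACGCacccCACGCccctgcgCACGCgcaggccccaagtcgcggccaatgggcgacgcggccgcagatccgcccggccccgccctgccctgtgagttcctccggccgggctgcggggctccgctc
CA9, chr9:35673678-35673927, plus strand: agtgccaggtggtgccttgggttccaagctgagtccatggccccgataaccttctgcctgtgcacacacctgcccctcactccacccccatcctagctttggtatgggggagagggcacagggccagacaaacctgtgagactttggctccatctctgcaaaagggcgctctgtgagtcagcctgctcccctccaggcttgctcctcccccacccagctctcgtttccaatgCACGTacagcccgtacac
PFKP, chr10:3067720-3067969, plus strand: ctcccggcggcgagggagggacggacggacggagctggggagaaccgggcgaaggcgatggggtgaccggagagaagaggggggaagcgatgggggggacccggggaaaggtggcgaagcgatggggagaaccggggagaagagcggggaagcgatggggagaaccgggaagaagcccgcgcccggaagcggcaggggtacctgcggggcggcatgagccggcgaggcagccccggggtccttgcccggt

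The LDHA promoter held 5 such cores, the BNIP3 promoter 6, the CA9 promoter 1 and this PFKP promoter 0. Other genes lower in the blocked fit below are not shown. The P4HA2 promoter held 0 cores, as did the SLC16A3 start furthest upstream, while another SLC16A3 start held 3. NDRG1 and VEGFA, also lower in that fit, had no promoter entry. The promoter of PFKP is listed with 4 starts, of which another 2 hold a core, and 3' end reads do not tell which start was used. RefSeq entries matched 32 of the 37 genes with 59 promoters, and 34 of these (57.6%) held a core, against 43.2% of 35114 promoters of the same length. Base composition moved with this share. Among promoters with 70 to 80% G and C, 16 of 22 held a core, against 62.1% of all such promoters, and with 60 to 70% it was 8 of 15 against 57.9%. A match is a run of letters, and no binding was measured.

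The first question was whether these genes differ between ventral midbrain and control astrocytes. PFKP, the platelet-type phosphofructokinase that commits fructose 6-phosphate to glycolysis, was about 2-fold higher in ventral midbrain astrocytes and was the single member to pass the test. All 9 tested of the 11 other HIF targets had a negative fold change, with a median of -0.61 on the log2 scale, and none of them passed. With edgeR (quasi-likelihood) 344 of 15984 genes had a Benjamini-Hochberg adjusted p under 0.05. That is 2.15% of the genes, with 1.06% higher and 1.09% lower, against 1 of 35 members (2.86%). The members' count is thus near the background. At an unadjusted p under 0.05 stood 10 of 35 members, against 12% of all genes. DESeq2 and limma voom also called 1 member each, with 4.69% and 2.1% of all genes called.

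Same-numbered libraries of the 2 groups deviated together from their group means, so the fit was repeated with the replicate number as a block, which compares each ventral midbrain library with the control of its own number. In that fit 8 members passed, 1 higher and 7 lower, against 8.13% of all genes (3.63% higher and 4.5% lower). The 7 lower ones were LDHA, SLC16A3, CA9, BNIP3, NDRG1, VEGFA and P4HA2. On the deposited normalized values with the same block, limma kept SLC16A3 (adjusted p = 0.026), NDRG1 (0.0091), VEGFA (0.02), P4HA2 (0.047) and PFKP (0.0097), and did not call LDHA (0.23), CA9 (0.11) or BNIP3 (0.11). No label says what a replicate number stands for, and calls from this fit are named as such below.

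Phosphofructokinase has 3 isoenzymes, and PFKP (chromosome 10, 3066333 to 3137712, GRCh38) stood at 71.7, 56.2 and 65.6 CPM in control replicates 2, 3 and 4. In ventral midbrain replicates 2, 3 and 4 it stood at 142, 119 and 123 CPM. Every ventral midbrain library lay above every control library. The means were 64.5 ± 7.79 CPM (SD, n = 3) and 128 ± 12.7 CPM (SD, n = 3), and the difference was 0.99 ± 0.16 on the log2 scale (SE; edgeR adjusted p = 0.01). The ratios within pairs 2, 3 and 4 were 0.99, 1.07 and 0.90 on the log2 scale. The adjusted p rose to at most 0.057 with 1 library left out, the call being lost without control replicate 4 or ventral midbrain replicate 2.

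PFKM, the muscle-type isoenzyme, also had no overlap between groups, at 26.5 to 31.5 CPM in control and 34.9 to 40.6 CPM in ventral midbrain libraries (edgeR adjusted p = 0.36). PFKL, the liver-type isoenzyme, lay the other way, at 45.9 to 70 and 40.0 to 54.1 CPM (edgeR adjusted p = 0.68). The makeup of the family shifted accordingly. PFKP took 41.4%, 42.9% and 45.5% of the reads of the 3 genes in control replicates 2, 3 and 4. In the ventral midbrain replicates it took 60%, 60.2% and 60.6%, so the groups did not overlap. The share of PFKL was 21.8% ± 1.3 (SD, n = 3) in ventral midbrain libraries against 37.2% ± 2.85 (SD, n = 3) in control, without overlap. The mean PFKM share was 18% and 19.5%, and its groups overlapped. The 3 shares add up to the whole, so the lower PFKL share is not independent of the higher PFKP share. Shares are given as values without a test; an exact permutation test of 3 against 3 libraries cannot go below a p of 0.1. They compare groups and do not rank the isoenzymes.

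**Figure D1:**
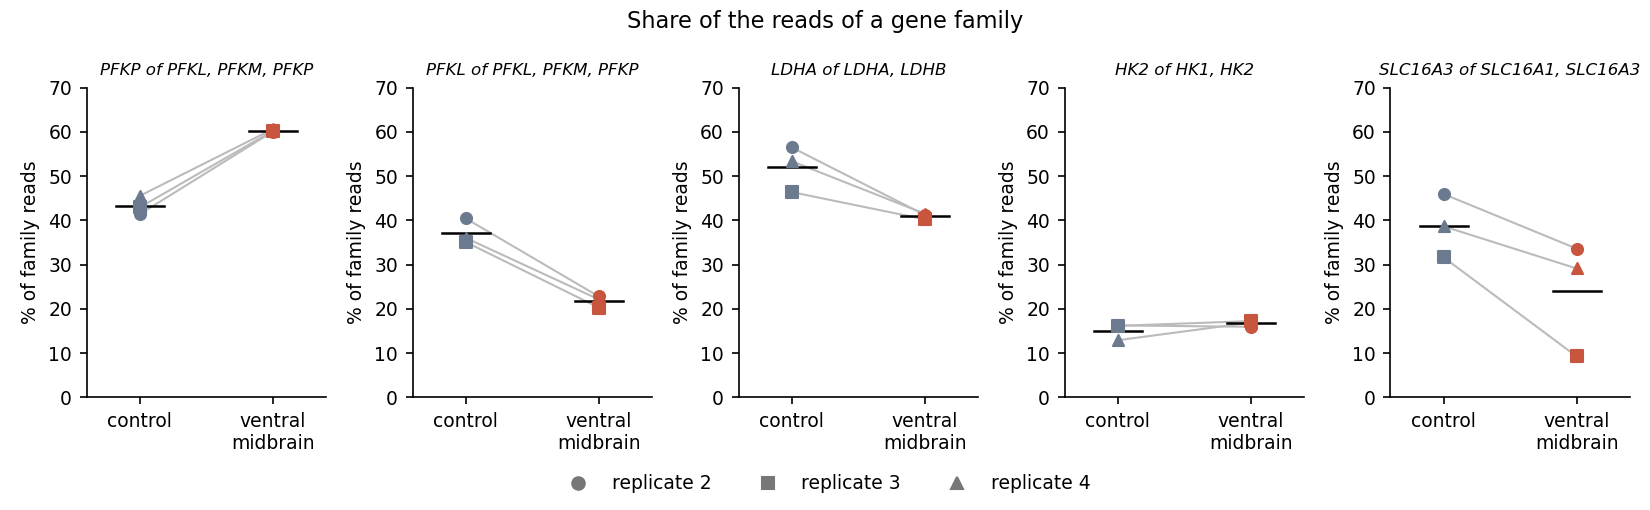
Share of the reads of a gene family (percent, linear axis) in control and ventral midbrain libraries; points are libraries, lines join the same replicate number and black bars are means. PFKP takes 60% to 60.6% of phosphofructokinase reads in ventral midbrain libraries against 41.4% to 45.5% in control, and the LDHA share is lower without overlap.

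Within lactate dehydrogenase the LDHA share was also separate between the groups. In the other families looked at, the shares of HK2, ALDOC, ENO2, SLC2A1, SLC16A3 and EPAS1 overlapped. LDHA (chromosome 11, 18394388 to 18408425, GRCh38), the subunit that favours lactate formation and a HIF target, stood at 538, 349 and 436 CPM in control replicates 2, 3 and 4. In ventral midbrain replicates 2, 3 and 4 it was at 355, 314 and 286 CPM. The ventral midbrain library was lower in each pair, while control replicate 3 lay within the ventral midbrain range. Its difference was -0.47 ± 0.19 on the log2 scale (SE; edgeR adjusted p = 0.31, or 0.034 in the blocked fit). LDHB, the subunit that favours pyruvate, was at 415, 404 and 381 CPM in control and 506, 466 and 403 CPM in ventral midbrain replicates 2, 3 and 4 (edgeR adjusted p = 0.71). LDHA made up 56.5%, 46.4% and 53.4% of the reads of both genes in the control replicates. In the ventral midbrain replicates it made up 41.2%, 40.2% and 41.5%, below every control library. In the blocked fit the LDHA call held in 2 of 6 fits with a library left out, those without a replicate 3 library. The edgeR adjusted p reached 0.26 in the others. Leaving out either library of a pair removes that pair from the contrast, so the 6 fits are not independent.

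Of 17 glycolytic enzymes, all tested, PFKP rose and 16 did not pass, with 1.06% of all genes higher and 1.09% lower. Fold changes were negative for 12 (70.6%, against 48.3% of all genes tested), with a median of -0.26 on the log2 scale against 0.01 over all genes. In the blocked fit PFKP was higher and LDHA lower, and 15 did not pass, with 3.63% of all genes higher and 4.5% lower. Ventral midbrain was lower in all 3 pairs for 8 of the 17, against 20.4% of all genes, and higher in all 3 for 4, against 21.1%.

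The first step of glycolysis, phosphorylation of glucose, falls to the hexokinases. HK2, the inducible hexokinase and a HIF target, was at 15.8 to 19.7 CPM in control and 20.6 to 25.0 CPM in ventral midbrain libraries, with no overlap (edgeR adjusted p = 0.51). HK1, the widely expressed hexokinase, was at 82.1 to 108 and 99.0 to 132 CPM, and the HK2 share of hexokinase reads was 15.1% and 16.7%. GPI, which interconverts glucose and fructose phosphates, was at 219, 151 and 142 CPM in control and 169, 112 and 115 CPM in ventral midbrain replicates 2, 3 and 4. It was lower in each pair (edgeR adjusted p = 0.59, or 0.068 in the blocked fit).

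In the middle of the pathway, levels of control and ventral midbrain libraries overlapped. ALDOA, the main aldolase, was at 261 to 435 and 231 to 307 CPM, and TPI1, triosephosphate isomerase, at 241 to 317 and 210 to 271 CPM. ALDOC, the brain-type aldolase, was high in 1 library: it was at 19.6, 13 and 64.3 CPM in control and 12.5, 13.6 and 21.8 CPM in ventral midbrain replicates 2, 3 and 4. GAPDH, which makes the first NADH of the pathway, was at 5432, 3766 and 3785 CPM in control and 4852, 3519 and 3987 CPM in ventral midbrain replicates 2, 3 and 4. Its difference was -0.07 ± 0.20 on the log2 scale (SE; edgeR adjusted p = 0.95), and the sign turned with the gene-length offset and in 2 fits with a library left out. PGK1, the first ATP-forming kinase, was at 200, 130 and 151 CPM in control and 158, 134 and 110 CPM in ventral midbrain replicates 2, 3 and 4. PGAM1, the mutase after it, was at 207 to 254 and 183 to 257 CPM.

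Toward the end of the pathway, ENO1, the widespread enolase, was at 968 to 1345 CPM in control and 803 to 1047 CPM in ventral midbrain libraries. ENO2, the neuronal enolase, was at 24.5 to 36.8 and 19.3 to 24.2 CPM, lower without overlap (edgeR adjusted p = 0.57). PKM, pyruvate kinase, was at 789, 1167 and 598 CPM in control and 616, 540 and 543 CPM in ventral midbrain replicates 2, 3 and 4. Control replicate 3 was the highest of the 6, and the difference of -0.59 ± 0.23 on the log2 scale (SE; edgeR adjusted p = 0.30) ran from -0.79 to -0.29 with a library left out. PKM1 and PKM2, splice forms that differ in an internal exon, are not told apart by reads of the transcript end.

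The PFKFB enzymes set the level of fructose 2,6-bisphosphate, an activator of phosphofructokinase. None of the 3 passed with edgeR, DESeq2 or voom, and 0 stood at an unadjusted p under 0.05. PFKFB3, the strongly activating form, was at 37.6 to 62.6 CPM in control and 37.6 to 62.9 CPM in ventral midbrain libraries. PFKFB4 was at 3.25 to 8.47 and 2.72 to 5.33 CPM on 38 to 112 reads a library, and PFKFB2 at 3.95 to 6.96 and 4.94 to 5.73 CPM.

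**Figure D2:**
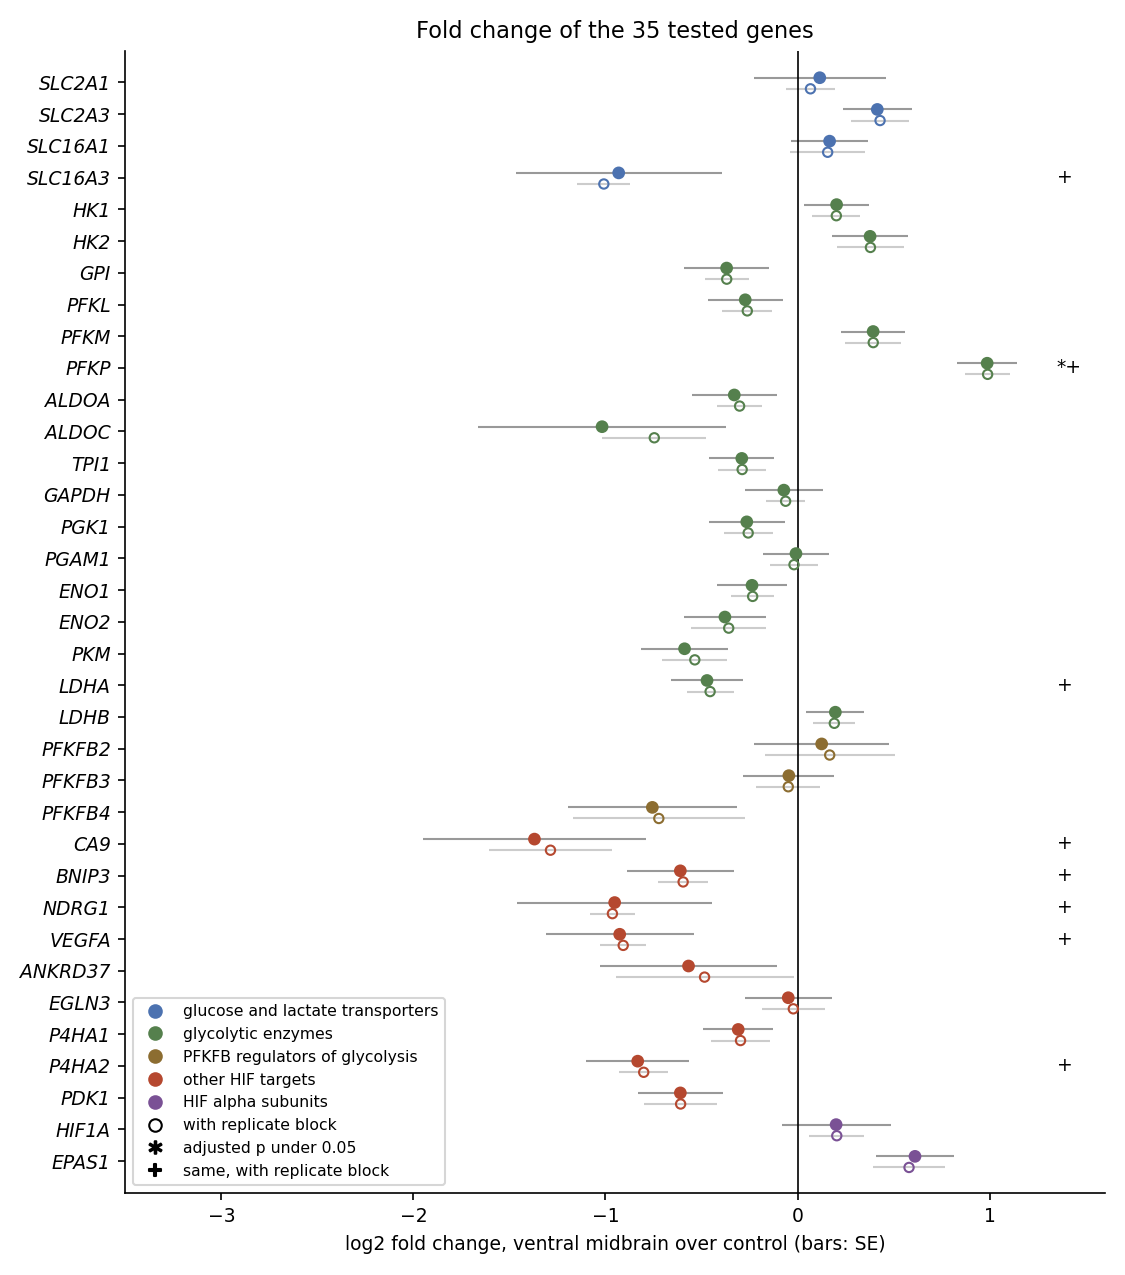
log2 fold change of ventral midbrain over control for the 35 tested genes (filled points, bars are SE), with the same from the fit with the replicate block (open points). PFKP alone passes in both fits, and 7 genes on the lower side, 5 of them other HIF targets, pass with the block only.

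None of the 4 transporters passed edgeR's test, DESeq2's or voom's. At an unadjusted p under 0.05 stood 1, against 12% of all genes, and 1 was lower with the block, against 4.5%. SLC16A3 (chromosome 17, 82228397 to 82261129, GRCh38), the monocarboxylate transporter MCT4 that exports lactate and is a HIF target, was lower in ventral midbrain astrocytes in each pair. It stood at 120, 50.6 and 99.7 CPM in control replicates 2, 3 and 4, and at 67.3, 19.8 and 54.3 CPM in the ventral midbrain replicates. Replicate 3 was the lowest in both groups, and the groups overlapped. Without the block the difference was -0.93 ± 0.54 on the log2 scale (SE; edgeR adjusted p = 0.61), and with it -1.01 ± 0.14 (SE; edgeR adjusted p = 0.00039). SLC16A1, the monocarboxylate transporter MCT1, was at 109 to 158 and 132 to 193 CPM (edgeR adjusted p = 0.85). The SLC16A3 share of the reads of both transporters was 45.9%, 31.6% and 38.7% in control replicates 2, 3 and 4, against 33.6%, 9.27% and 29.1% in their ventral midbrain counterparts.

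SLC2A1, the glucose transporter GLUT1 of glia and vessel walls, was at 74.5, 72 and 121 CPM in control and 67.0, 75.3 and 148 CPM in ventral midbrain replicates 2, 3 and 4. Replicate 4 was the highest in both groups, and the sign of the difference turned between settings (edgeR adjusted p = 0.95). SLC2A3, the high-affinity glucose transporter GLUT3, was at 131, 86.2 and 104 CPM in control and 135, 161 and 134 CPM in ventral midbrain replicates 2, 3 and 4. The groups did not overlap, but the log2 fold change of 0.42 ± 0.18 did not pass (SE; edgeR adjusted p = 0.38, or 0.12 in the blocked fit).

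Of the 11 other HIF targets, 9 were tested. The fold change was negative for all 9, from -1.37 for CA9 to -0.05 for EGLN3, against 48.3% of all genes. Of these 4 stood at an unadjusted p under 0.05, against 12% of all genes. None passed edgeR's test, DESeq2's or voom's, against 2.15%, 4.69% and 2.1% of all genes. With the replicate block 5 were lower and 0 higher, against 4.5% and 3.63% of all genes. Ventral midbrain was lower in all 3 pairs for 6 of the 9 and higher in all 3 for 0, against 20.4% and 21.1% of all genes. ANKRD37, EGLN3 and P4HA1 had pairs of both signs. The median fold change of the 9 was -0.62, -0.64 and -0.95 on the log2 scale in pairs 2, 3 and 4, against -0.00, 0.02 and 0.01 over all genes.

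VEGFA (chromosome 6, 43770184 to 43786487, GRCh38), the main growth factor of blood vessels, stood at 96.3, 56.9 and 137 CPM in control replicates 2, 3 and 4. In ventral midbrain replicates 2, 3 and 4 it was at 49.1, 32.9 and 71.0 CPM. Each ventral midbrain library lay below its own control, with ratios of -0.97, -0.79 and -0.95 on the log2 scale, and control replicate 3 lay within the ventral midbrain range. Without the block the difference was -0.93 ± 0.39 on the log2 scale (SE; edgeR adjusted p = 0.41), and with it -0.91 ± 0.12 (SE; edgeR adjusted p = 0.00031).

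NDRG1, a stress-responsive gene of growth arrest and myelination, stood at 344, 146 and 375 CPM in control replicates 2, 3 and 4. In the ventral midbrain replicates it was at 196, 72.4 and 178 CPM. Replicate 3 was the lowest in both groups, and the pair ratios were -0.81, -1.01 and -1.07 on the log2 scale (edgeR adjusted p = 0.57, or 0.00014 in the blocked fit). P4HA2, a collagen prolyl hydroxylase subunit, was at 83.8, 65.2 and 130 CPM in control and 52.1, 40.1 and 64.2 CPM in ventral midbrain replicates 2, 3 and 4. It was lower without overlap (edgeR adjusted p = 0.21, or 0.0012 in the blocked fit). VEGFA, NDRG1, P4HA2, SLC16A3 and PFKP kept their blocked call in 6 of 6 fits with a library left out. These fits are not independent, because leaving out either library of a pair removes that pair from the contrast.

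BNIP3, a mitochondrial protein that promotes mitophagy, stood at 91.2, 47.1 and 80.5 CPM in control and 61.0, 34.5 and 47.9 CPM in ventral midbrain replicates 2, 3 and 4 (edgeR adjusted p = 0.43, or 0.0096 in the blocked fit). CA9, the membrane carbonic anhydrase that is a standard marker of hypoxia, was at 14.3, 3.25 and 13.1 CPM in control and 6.18, 2.04 and 3.58 CPM in ventral midbrain replicates 2, 3 and 4. These values rest on 26 to 195 reads a library, and the groups overlapped through control replicate 3 alone. Its difference was -1.37 ± 0.58 on the log2 scale (SE; edgeR adjusted p = 0.39, or 0.024 in the blocked fit). The blocked calls of BNIP3 and CA9 held in 2 of 6 fits with a library left out. Both were without a replicate 3 library and so take that pair out of the contrast. The edgeR adjusted p of BNIP3 and CA9 reached 0.07 and 0.21 in the others.

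**Figure D3:**
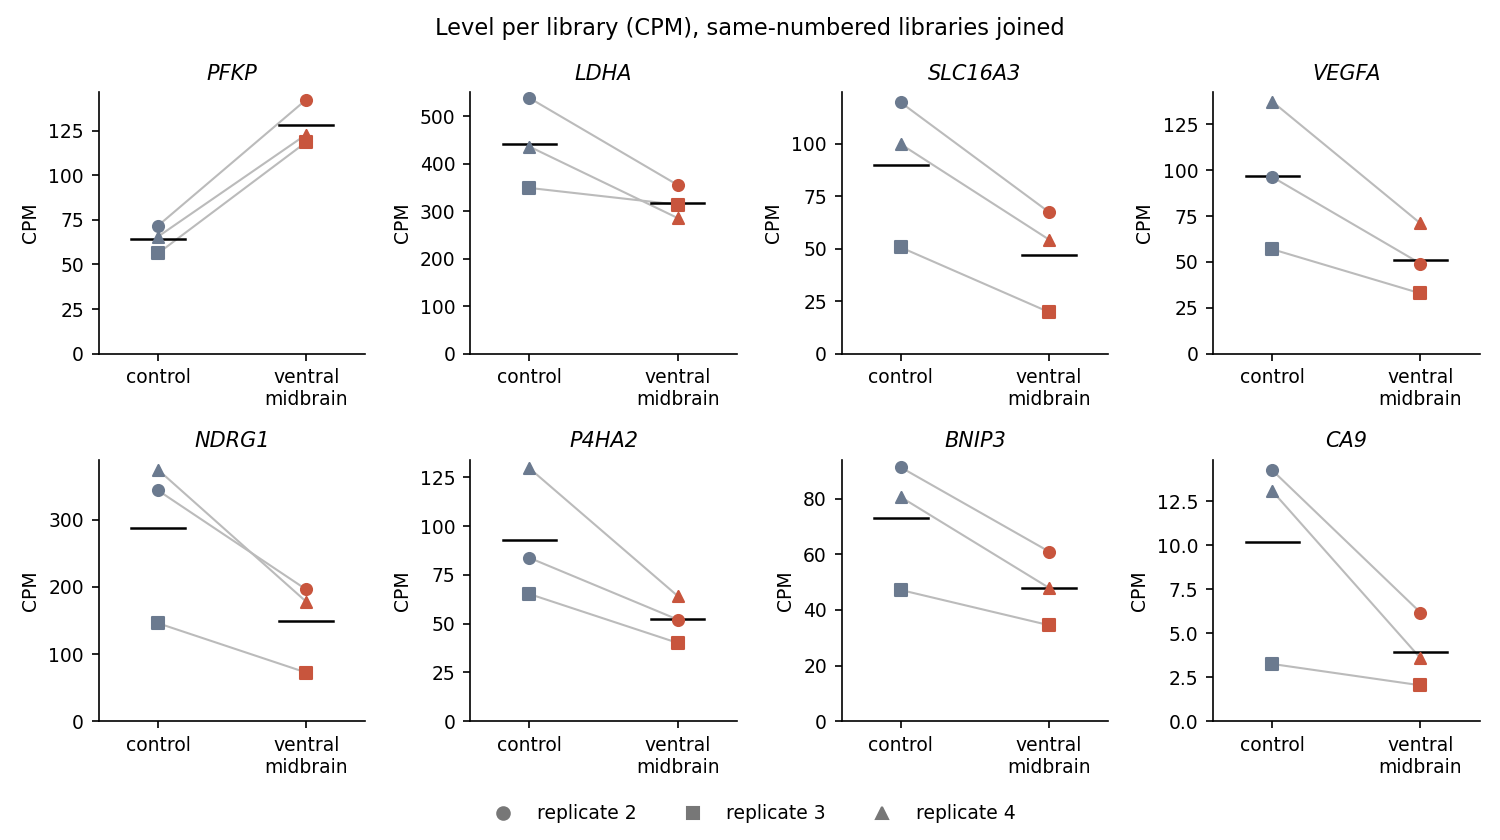
Level per library (CPM, linear axes from 0) of the 8 genes that passed in either fit; lines join libraries of the same replicate number and black bars are means. PFKP is higher in every ventral midbrain library (119 to 142 against 56.2 to 71.7 CPM), and each of the other genes is lower in all 3 pairs, with replicate 3 the lowest control library.

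The remaining HIF targets did not pass in either fit. PDK1, the kinase that keeps pyruvate out of the mitochondrial cycle, was at 23.5, 18.7 and 17.3 CPM in control and 15.2, 11.5 and 12.2 CPM in ventral midbrain replicates 2, 3 and 4, lower without overlap (edgeR adjusted p = 0.26, or 0.072 in the blocked fit). P4HA1, the paralog of P4HA2, was at 171 to 253 and 158 to 201 CPM. EGLN3, an oxygen-sensing prolyl hydroxylase that HIF induces, was at 20.9 to 35.9 and 25.1 to 32.5 CPM, and ANKRD37, an ankyrin repeat gene, at 2.85 to 7.79 and 2.22 to 4 CPM in control and ventral midbrain libraries. ADM, the vasodilator adrenomedullin, had 7 to 23 reads in control and 3 to 5 in ventral midbrain libraries, too few to be tested. EGLN1, the main HIF prolyl hydroxylase, had 15 reads in control replicate 2 and 0 in the other libraries under the annotation used here. The authors' deposited table lists it at a normalized signal of 308, 137 and 112 (control replicates 2, 3 and 4) and of 155, 225 and 128 (ventral midbrain replicates 2, 3 and 4). The sources thus differ for EGLN1, and the reason was not tested. On that signal its log2(value + 1) difference was -0.03 ± 0.40 (SE; limma adjusted p = 0.99).

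Neither HIF alpha subunit passed in either fit, and both had a positive fold change. HIF1A was at 311, 181 and 176 CPM in control and 309, 289 and 171 CPM in ventral midbrain replicates 2, 3 and 4, a difference of 0.20 ± 0.28 on the log2 scale (SE; edgeR adjusted p = 0.88). EPAS1 was at 105, 93.5 and 116 CPM in control and 164, 201 and 115 CPM in ventral midbrain replicates 2, 3 and 4. Its ratio was 0.65, 1.10 and -0.01 on the log2 scale in the 3 pairs, so replicate 4 did not share the difference (edgeR adjusted p = 0.21, or 0.098 in the blocked fit). Transcript levels of these genes say little about the proteins, which are controlled by breakdown and were not measured.

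**Figure D4:**
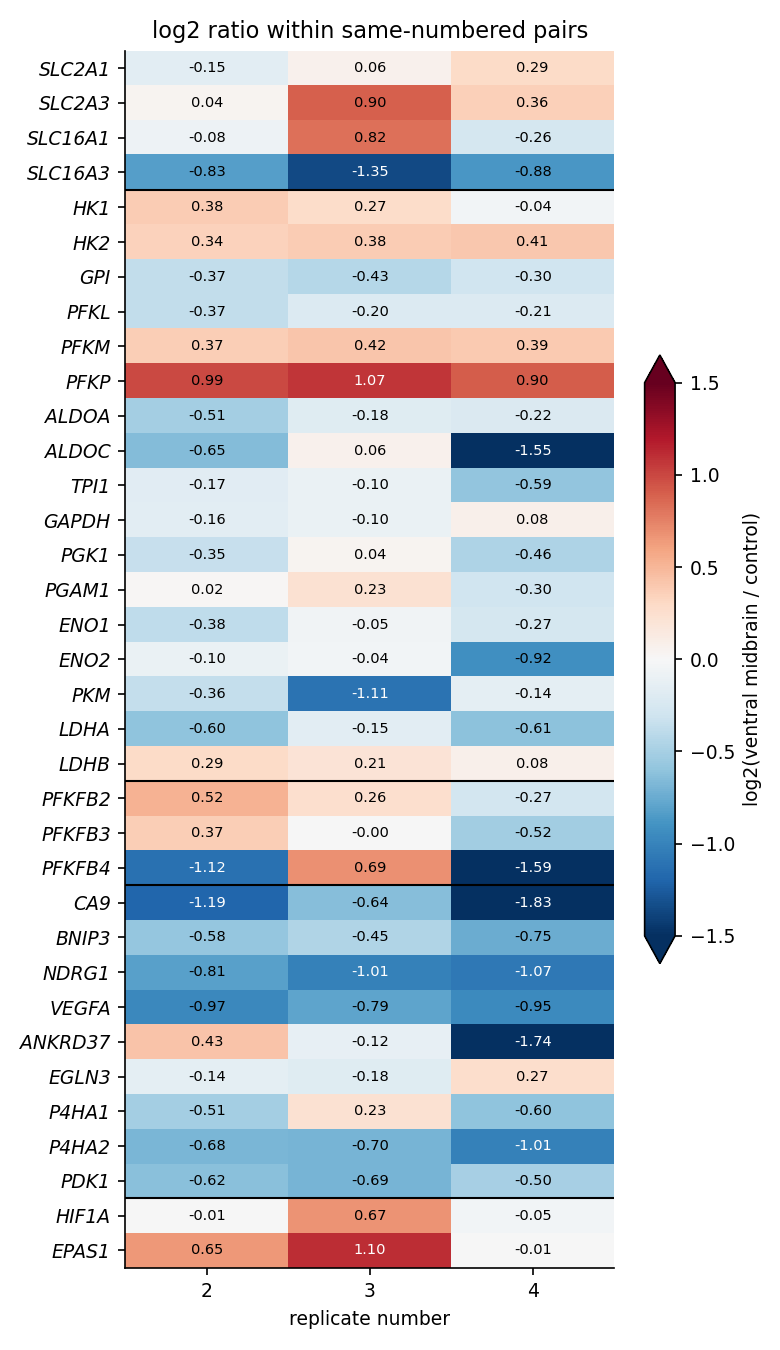
log2 ratio of ventral midbrain over control within each pair of same-numbered libraries, for the 35 tested genes in order of role (blue lower, red higher in ventral midbrain; lines separate the groups). Of the 35, 15 are lower and 5 higher in all 3 pairs, and colours saturate at 1.5.

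Over the 35 tested members, ventral midbrain was lower in all 3 pairs for 15 (42.9%) and higher in all 3 for 5 (14.3%), against 20.4% and 21.1% of all genes. Control and ventral midbrain ranges were separate for 7 (20%) of the members, 4 higher and 3 lower, against 17.9% of all genes (9.17% higher and 8.75% lower). The 4 higher ones were SLC2A3, HK2, PFKM and PFKP, and the 3 lower ones ENO2, P4HA2 and PDK1.

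The spread within groups was shared by replicate number. Replicate 3 was the lowest library of both groups for 5 of the 9 other HIF targets and 13 of 35 members (37.1%), against 17.7% of all genes, and the highest of both for 0 of 35. The mean level of the other HIF targets was 5.68, 5.03 and 5.79 log2 CPM in control replicates 2, 3 and 4, and 5.11, 4.54 and 4.88 log2 CPM in their ventral midbrain counterparts. Proliferation genes were highest in replicate 3 of both groups. Between the groups 14 of 15 had a positive fold change and 7 were higher in all 3 pairs, against 21.1% of all genes. None of the 15 passed with edgeR, DESeq2 or voom or stood at an unadjusted p under 0.05. In the blocked fit 5 were higher and 0 lower, against 3.63% and 4.5% of all genes. Their part in the values of the HIF targets was not tested. A setting chosen after seeing the data left out both replicate 3 libraries. PFKP and NDRG1 then passed edgeR's test, with 248 of 16215 genes called. With the block in addition 1 member was higher and 9 lower, with 853 of 16215 genes called. In that blocked fit ALDOC and P4HA1 passed in addition to the 8.

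**Figure D5:**
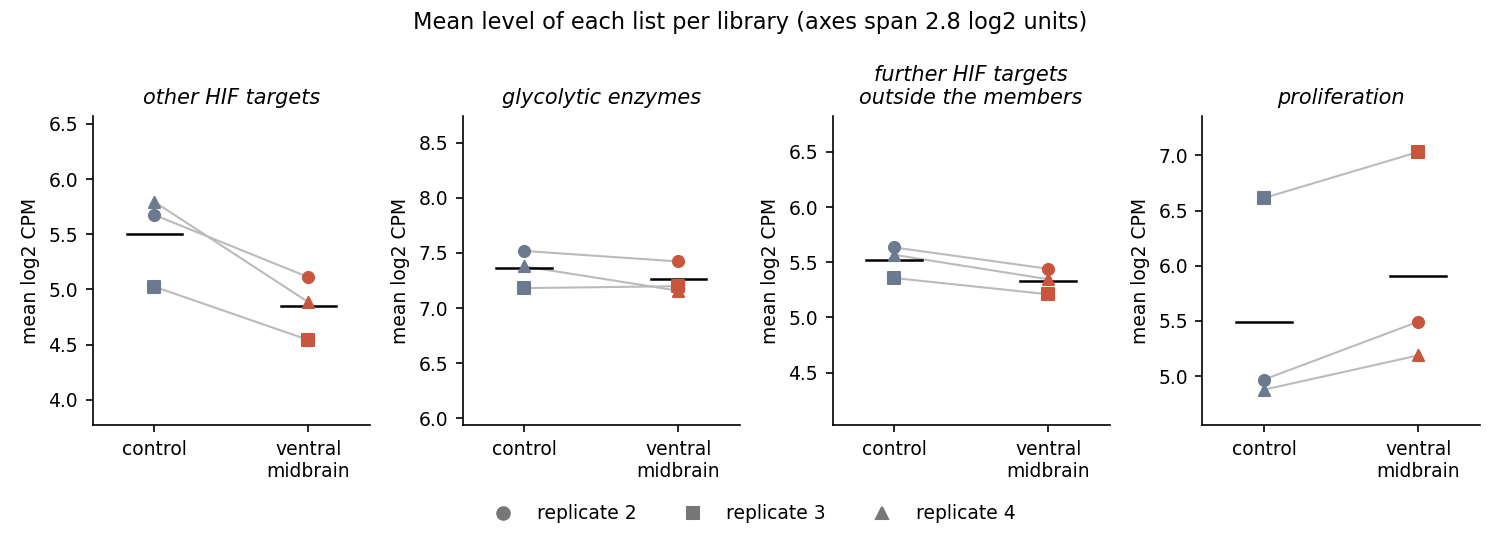
Mean log2 CPM of 4 gene lists per library, with lines joining the same replicate number, black bars for means and axes of equal span. The other HIF targets are lower in ventral midbrain in each pair and lowest in replicate 3 of each group (5.03 and 4.54), where proliferation genes are highest (6.61 and 7.03).

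Markers of other cell types differed between the groups in both directions. In bulk RNA, fewer cells of a type and less RNA per cell cannot be told apart. Summed over 12 neuron markers the level was 1343 to 2083 CPM in control and 855 to 1247 CPM in ventral midbrain libraries, and STMN2, a neuronal growth protein, made up most of the difference. STMN2 stood at 1087, 639 and 1456 CPM in control and 570, 150 and 626 CPM in ventral midbrain replicates 2, 3 and 4. Without it the sum was 599 to 703 CPM in control and 554 to 705 CPM in ventral midbrain libraries, which overlapped. Of 11 tested neuron markers edgeR called 0 and voom 0. At an unadjusted p under 0.05 stood 4, against 12% of all genes, and DESeq2 called 4, against 4.69%. The blocked fit called 5 lower (STMN2, DCX, NEFL, NEFM and INA) and 0 higher, against 4.5% and 3.63% of all genes. The fold change was positive for 5 (GAP43, SYT1, MAP2, SNAP25 and TUBB3). RBFOX3 was at 0 reads in 2 control libraries.

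Summed over 12 mesenchymal markers the level was 1371 to 2043 CPM in control and 885 to 1165 CPM in ventral midbrain libraries. With edgeR 3 of the 12 fell (COL1A1, COL3A1 and PRRX1) and 0 rose, against 1.09% and 1.06% of all genes. The COL3A1 call was lost in 4 of 6 fits with 1 library left out. COL1A1, a fibrillar collagen, was at 671 to 1077 and 235 to 311 CPM. The fold change was positive for 5. Of these POSTN, a matrix protein, was at 52.4 to 80 CPM in control and 91.6 to 147 CPM in ventral midbrain libraries (edgeR adjusted p = 0.06, or 0.0003 in the blocked fit). DCN and LUM, matrix proteoglycans, were also higher without overlap, on 2 to 34 and 0 to 47 reads a library, and did not pass. Of 8 choroid plexus and ependyma markers 3 were tested (FOXJ1, DNAH9 and PIFO). All 3 were higher without overlap, against 9.17% of all genes. EdgeR called 0, and the blocked fit called 2 higher, against 3.63% of all genes. FOXJ1 was at a mean of 10.2 CPM in control and 62.4 CPM in ventral midbrain libraries (edgeR adjusted p = 0.087, or 0.0013 in the blocked fit). The part of these cell types in the values of the HIF targets was not tested.

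Genes of the same pathways outside the 37 gave a mixed picture. Of 34 further HIF targets 33 were tested, and 2 fell while 0 rose with edgeR, against 1.09% and 1.06% of all genes. In the blocked fit 6 were lower and 2 higher, against 4.5% and 3.63% of all genes. LOX, an enzyme that crosslinks collagen, fell to 29.2 ± 7.62 CPM against 93.5 ± 12.4 in control (SD, n = 3, edgeR adjusted p = 0.0037). PPP1R3C, a glycogen-targeting phosphatase subunit, fell to 28.9 ± 4.71 CPM against 79.0 ± 15.6 in control (SD, n = 3, edgeR adjusted p = 0.0045). BHLHE41, a transcriptional repressor and HIF target, was higher in ventral midbrain libraries without passing, at 51.4 to 87.7 and 93.3 to 173 CPM (edgeR adjusted p = 0.091). The median over the 33 was -0.14 on the log2 scale, with 22 negative.

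Of 16 genes of oxygen sensing and HIF partnership edgeR, DESeq2 and voom each called 0. An unadjusted p under 0.05 was found for 1, against 12% of all genes. EP300, a HIF coactivator, was at 106 to 141 and 89.9 to 97.5 CPM (edgeR adjusted p = 0.30). HIF3A, an alpha subunit with inhibitory forms, was at 28.9, 40.0 and 51.4 CPM in control and 17.4, 11 and 35.4 CPM in ventral midbrain replicates 2, 3 and 4 (edgeR adjusted p = 0.47, or 0.022 in the blocked fit). ELOC, a subunit of the VHL ubiquitin ligase, was at 45.3 to 57.1 and 53.8 to 65.6 CPM, and SIAH2, a ligase that acts on EGLN proteins, at 11.7 to 17.8 and 8.45 to 15 CPM.

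Of 56 neighbouring genes of sugar and pyruvate metabolism 48 were tested. With edgeR 1 rose and 2 fell, against 1.06% and 1.09% of all genes. GYG1, the primer of glycogen synthesis, rose to 33.0 ± 6.14 CPM against 15.8 ± 0.856 in control (SD, n = 3, edgeR adjusted p = 0.022). PYGL, a glycogen phosphorylase, fell to 18.6 ± 4.2 CPM against 37.4 ± 2.99 in control (SD, n = 3, edgeR adjusted p = 0.035). SLC2A12, a glucose transporter of the GLUT family, fell to 19.7 ± 8.58 CPM against 60.1 ± 3.22 in control (SD, n = 3, edgeR adjusted p = 0.033). SLC2A8, another of that family, was at 35.5 to 48.7 and 24.6 to 26.3 CPM (edgeR adjusted p = 0.07, or 0.012 in the blocked fit). In the blocked fit 1 was higher and 5 lower, against 3.63% and 4.5% of all genes. The median over the 48 was -0.06 on the log2 scale.

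Counting limits touch some members. For 12 of the 37, another annotated gene that overlaps them had over 10% as many reads, so their levels are uncertain. These were SLC16A1, SLC16A3, HK2, PFKM, ALDOC, PGK1, ENO2, PFKFB2, CA9, ANKRD37, EGLN3 and P4HA2, and they include HK2, PFKM, ENO2 and P4HA2 among the genes with separate ranges. GAPDH had 19 annotated pseudogenes with reads, which held 0.0492% as many reads as GAPDH itself. In the lists outside the members, the deposited signal exceeded the summed reads for MXI1, PDK3 and PGM3. The ratio, set against that of the median gene, was 6.78, 5.06 and 1.98, and the reason was not tested.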

How the data were processed

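RNA of 6 samples was profiled with 3' end libraries. Salmon, DESeq2 1.27.12 and GRCh38.p13 are named in the submitters' processing notes. Deposited transcript files hold estimated counts, TPM and effective length (another measure, in bases) per transcript. TPM, deposited by the authors, was used only to weight lengths. The authors also deposited a normalized signal for 21509 genes, with no statement of its scaling in the labels or header.

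Estimated counts were summed per gene with GENCODE 29 (GRCh38), which matched 90.6% of 226608 transcripts; the others held 0.992% to 1.12% of a library's reads. Sums were rounded, filtered (filterByExpr) and TMM-scaled. edgeR 4.0.16 (quasi-likelihood, robust; R 4.3.3) compared the groups, with Benjamini-Hochberg adjustment over all genes tested and a threshold of 0.05. Each SE was derived from the fold change and its F statistic (|log2FC| / sqrt F). Pair ratios use log2 CPM with a prior count of 2. The script was tested on simulated data.

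Members and lists were chosen with earlier results of these data known, and all 37 members are named. From each list outside the members, genes past the threshold and the 4 with the smallest p are named, except 1 that is not reported here. Same-numbered libraries correlated in their deviations from the group means at 0.234, 0.345 and 0.204, whereas differently numbered ones reached 0.0237 at most, so the numbers were taken to pair the samples. These correlations depend on each other, because deviations cancel within a group. The strand setting of the quantification is not stated in the labels. Alternatives were other scalings and filters, DESeq2 1.42.0, limma 3.58.1 (voom), a gene-length offset, the deposited signal on log2(value + 1), unrounded counts, protein-coding genes alone, a stricter threshold, the replicate block and leaving out libraries. Figures were drawn with matplotlib 3.10.9.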

Additional observations from a re-analysis of the deposited data

How the results depend on the processing

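The PFKP call held with the scalings, filters, tools, length offset and deposited values tried, and was lost at an adjusted p under 0.01 and without control replicate 4 or ventral midbrain replicate 2. With no low-count filter 1012 of 27439 genes were called, against 344 of 15984 (2.15%) in the main analysis. The number was 750 with DESeq2 (4.69%), 1300 with the replicate block (8.13%) and 102 at an adjusted p under 0.01. It was 173 with the gene-length offset, 182 with the deposited normalized values and 131 to 258 with 1 library left out. Members called, 1 of 35 in the main analysis, were 7 of 37 with no low-count filter (2 higher and 5 lower). They were 8 of 35 with the replicate block, 0 at an adjusted p under 0.01 and 0 to 1 with 1 library left out. Glycolytic enzymes called went from 1 to 2 with no filter, 2 with the block, 0 at the stricter threshold and 0 to 1 with 1 library left out. Other HIF targets called went from 0 of 9 to 4 of 11 with no filter and 5 of 9 with the block. Without the filter PKM, CA9, BNIP3, VEGFA, P4HA2 and EPAS1 passed in addition; the cause was not tested.

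The following settings were chosen after seeing the data. Without both replicate 3 libraries 248 of 16215 genes, 2 members and 1 other HIF target were called. With the block in addition it was 853 of 16215 genes, 10 members, 3 glycolytic enzymes and 6 other HIF targets. With the replicate block and 1 library left out, 790 to 1001 genes (1001, 856 and 805 without control replicates 2, 3 and 4, and 939, 921 and 790 without ventral midbrain replicates 2, 3 and 4), 6 to 10 members, 1 to 3 glycolytic enzymes and 3 to 6 other HIF targets were called. The blocked fits with 1 library left out tested 16566 to 16696 genes. A blocked fit without 1 library of a pair takes its contrast from the other 2 pairs. The counts of members lower or higher in all 3 pairs stayed within 1.5 times under the scalings, filter and prior count tried.

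Signs turned in members with small differences, none of them past the threshold. With the gene-length offset the log2 fold change was 0.0076 for GAPDH and 0.053 for PGAM1, and with the deposited values it was 0.036 for PGAM1 and -0.0018 for SLC2A1. With 1 library left out it ran from -0.33 to 0.39 for SLC2A1, -0.037 to 0.28 for SLC16A1, -0.21 to 0.13 for GAPDH, -0.11 to 0.13 for PGAM1, -0.019 to 0.43 for PFKFB2, -0.29 to 0.15 for PFKFB3 and -0.25 to 0.12 for EGLN3. Few reads limit EGLN1 and ADM, which were not tested, and CA9, ANKRD37, PFKFB4 and PFKFB2, with 26 to 48 reads in their lowest library.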
